A study of Mus musculus with 12 samples.

Results

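The genes described here are 9 genes that mark mast cells: Cpa3, Cma1, Mcpt4, Tpsb2, Tpsab1, Kit, Ms4a2, Fcer1a and Hdc. They were taken by symbol from the 55281 annotated genes counted in bulk RNA sequencing of mouse gonadal white adipose tissue (GWAT), and each symbol matched 1 row. The genes were chosen by their levels in these same libraries, so the levels and fold changes of the 9 genes are given as a description, without a test. WT mice were Hoip fl/fl AdipoQ.Cre- animals, and HoipA-KO mice carried the same floxed Hoip (Rnf31) alleles with AdipoQ.Cre, which deletes the gene in mature adipocytes. Mice of both genotypes started at 6 weeks of age on a control diet (CD, 14% fat per the labels) or a high-fat diet (HFD, 60% fat), and fat was taken after 16 weeks. Each of the 4 groups, WT CD, WT HFD, HoipA-KO CD and HoipA-KO HFD, had 3 libraries, and each library held RNA pooled from 3 mice. The spread between libraries is therefore the spread between pools.

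Mast cells are long-lived tissue leukocytes that enter tissues as progenitors and mature there, with the receptor Kit and its ligand, stem cell factor, as their main survival axis. Mature cells of the connective tissue type store carboxypeptidase A3, chymases and tryptases in granules together with histamine and heparin. They carry the high-affinity IgE receptor, and its crosslinking releases the granules. They lie along vessels and between adipocytes in fat.

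Between 30513500 and 60540260 estimated counts per library were assigned to genes, so that 3 counts, taken as the floor of a library, equalled 0.0524 to 0.0996 CPM (counts per 1e6 counts, scaled by TMM over the 12 libraries). WT CD replicate 3 stood apart, with male germ cell transcripts at a summed 9409 CPM over 8 markers, and the comparisons of the study left this library out. WT CD replicate 2 held 14951 CPM over 6 epididymal markers, and HoipA-KO HFD replicate 1 held 1310. Rnf31 lay between 12 and 22.5 CPM in the 12 libraries and was not lower in HoipA-KO libraries, so the genotype cannot be read from it in whole tissue. Summed adipocyte markers (Adipoq, Plin1, Lep, Cidec and Lipe) were 4269 to 13745 CPM in WT CD and 2211 to 3269 CPM in HoipA-KO CD. Fold changes below come from 1 fit of 11 libraries without WT CD replicate 3, and CPM values are given for all 12.

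Promoter windows are shown for 3 of the genes because they hold, in the bases just before the start site, the letters AGATAA, which contain the core recognised by GATA factors. RefSeq (GRCm38.p6) gave windows for 7 of the 9 genes. Each line gives the 120 bases before the start site on the strand of the gene, with AGATAA or its reverse complement TTATCT in capitals.
Cpa3, chr3:20242182-20242301, minus strand: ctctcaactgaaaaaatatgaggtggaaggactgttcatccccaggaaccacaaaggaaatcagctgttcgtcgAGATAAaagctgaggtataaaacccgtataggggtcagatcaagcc
Ms4a2, chr19:11623720-11623839, minus strand: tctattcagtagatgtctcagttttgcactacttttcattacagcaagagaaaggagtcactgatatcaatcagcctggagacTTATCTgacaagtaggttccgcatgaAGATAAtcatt
Fcer1a, chr1:173227230-173227349, minus strand: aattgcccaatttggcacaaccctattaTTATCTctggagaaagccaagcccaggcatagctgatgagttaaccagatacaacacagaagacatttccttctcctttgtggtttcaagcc
The match in Cpa3 began 46 bases before the start, that in Fcer1a 92 bases before it, and those in Ms4a2 37 and 11 bases before it, with another Ms4a2 match at 224 bases. In 250 bases before the start, AGATAA on either strand was found in 3 of the 7 genes and in 9.99% of all 32851 windows. The E-box CATGTG was found in 1 of the 7, Fcer1a at 208 bases, and in 12.3% of all windows, and the 2 motifs did not overlap. Cma1, Mcpt4, Kit and Hdc held neither motif in these 250 bases. Only these exact letters were searched, so other sequences with the GATA core were not counted. The 120 bases before the start of Mcpt4, for example, hold TGATAA.

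The tryptase genes Tpsb2 and Tpsab1 lie close together on chromosome 17 (GRCm38, GENCODE vM21), Tpsb2 at 25366305 to 25369098 on the plus strand and Tpsab1 at 25343245 to 25345562 on the minus strand. Their sequences are shown because paralogs can share reads. The first 120 bases of coding exon 3 of each gene follow, with the 51 differing bases in capitals.
Tpsb2, chr17:25367046-25367165, plus strand: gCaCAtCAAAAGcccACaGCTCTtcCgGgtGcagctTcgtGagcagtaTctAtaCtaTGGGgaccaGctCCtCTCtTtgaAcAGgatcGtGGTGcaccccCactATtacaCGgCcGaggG
Tpsab1, chr17:25344797-25344916, minus strand: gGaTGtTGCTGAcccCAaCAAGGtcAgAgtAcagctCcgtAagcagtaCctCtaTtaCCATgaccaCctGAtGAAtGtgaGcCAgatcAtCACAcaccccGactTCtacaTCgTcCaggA
The whole exon of 266 bases differed at 84 positions, and the aligned coding sequences were 77.1% identical. Only 0.856% of the 31-base words of the Tpsb2 transcript compared (Tpsb2-201) were also found in that of Tpsab1 (Tpsab1-202), so few reads could be split between them. The chymase genes Cma1 and Mcpt4, both on chromosome 14 (55941451 to 55944675 and 56059629 to 56062313, both on the minus strand), were 71.3% identical and shared no 31-base word in the transcripts compared.

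The granule carboxypeptidase gene Cpa3 (chromosome 3, 20215620 to 20242181, minus strand) had 1.07, 0.407 and 1.05 CPM in the 3 WT CD libraries, given in the order of their replicate numbers as are all such values, and 0.896, 14.0 and 44.0 CPM in WT HFD. The HoipA-KO libraries held 111, 117 and 75.4 CPM on CD and 49.4, 152 and 85.7 CPM on HFD. All 6 HoipA-KO libraries lay above all 6 WT libraries, and WT HFD replicate 1 lay within the range of WT CD. Cma1, the chymase of connective tissue mast cells, had 1.73, 1.18 and 1.68 CPM in WT CD, 2.92, 16.8 and 40.4 CPM in WT HFD, 159, 136 and 136 CPM in HoipA-KO CD, and 80.4, 200 and 134 CPM in HoipA-KO HFD. Mcpt4, the other main chymase of these cells, had 1.02, 1.07 and 1.80 CPM in WT CD, 2.12, 18.3 and 52.0 CPM in WT HFD, 146, 154 and 126 CPM in HoipA-KO CD, and 71.6, 178 and 144 CPM in HoipA-KO HFD. The groups of both chymases did not overlap between genotypes, and the 3 WT HFD libraries spanned over 10 times in each. These genes were chosen by their levels in the same libraries. The share of all genes whose libraries separate by genotype in this way was not computed. Such separations of the mast cell genes, here and below, are therefore a description only.

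Tpsb2, the principal tryptase, had 2.17, 1.18 and 2.18 CPM in WT CD and 3.15, 20.2 and 49.0 CPM in WT HFD. It reached 213, 148 and 195 CPM in HoipA-KO CD and 88.3, 243 and 143 CPM in HoipA-KO HFD. Tpsab1, the second tryptase, followed the same order of groups, with 0, 0.0428 and 0.244 CPM in WT CD, 0.166, 0.673 and 1.93 CPM in WT HFD, 11.1, 7.06 and 10.8 CPM in HoipA-KO CD, and 5.47, 10.8 and 7.57 CPM in HoipA-KO HFD. Its WT CD values rest on 0, 2 and 14 counts. Tpsab1 made up 4.55 to 5.27% of the tryptase CPM in HoipA-KO CD, 4.26 to 5.84% in HoipA-KO HFD and 3.22 to 5.00% in WT HFD, so the makeup of the tryptases lay in overlapping ranges while their level did not.

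The IgE receptor genes followed the proteases. Fcer1a, the IgE-binding alpha chain (chromosome 1, 173221284 to 173227214, minus strand), had 0.0487, 0.128 and 0.122 CPM in WT CD, 0.166, 1.52 and 5.07 CPM in WT HFD, 14.8, 18.5 and 9.99 CPM in HoipA-KO CD, and 7.22, 24.2 and 10.5 CPM in HoipA-KO HFD. Ms4a2, the beta chain that amplifies the signal (chromosome 19, 11615523 to 11623719, minus strand), had 0.0244, 0.0428 and 0.0698 CPM in WT CD, 0.133, 0.692 and 2.14 CPM in WT HFD, 5.53, 5.14 and 2.7 CPM in HoipA-KO CD, and 2.32, 6.37 and 3.52 CPM in HoipA-KO HFD. The HoipA-KO libraries again lay above every WT library for both chains, which is likewise a description without a share of all genes beside it. Ms4a2 in WT CD rests on 1, 2 and 4 counts, at or near the floor.

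Kit and Hdc did not follow the proteases. Kit, the receptor for stem cell factor (chromosome 5, 75574916 to 75656722, plus strand), had 24.4, 16.2 and 20.2 CPM in WT CD, 18.3, 20 and 24.0 CPM in WT HFD, 28.2, 24.1 and 16.3 CPM in HoipA-KO CD, and 15.8, 32.1 and 21.3 CPM in HoipA-KO HFD. The ranges of the 4 groups overlapped. Kit is also made by other cells, among them melanocytes and germ cells; the 5 melanocyte markers summed to 0.960 to 10.6 CPM over the libraries, with Tyr at 0 in 11 of them. Hdc, the enzyme that makes histamine (chromosome 2, 126593667 to 126619299, minus strand), had 2.97, 4.99 and 18 CPM in WT CD, 4.88, 3.81 and 4.23 CPM in WT HFD, 16.7, 14.1 and 16.4 CPM in HoipA-KO CD, and 11.3, 19.8 and 18.4 CPM in HoipA-KO HFD. Without WT CD replicate 3 the HoipA-KO libraries of Hdc lay above all WT libraries, and with it they did not. Unlike the proteases, Hdc was not higher in WT HFD than in WT CD replicates 1 and 2.

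**Figure D1:**
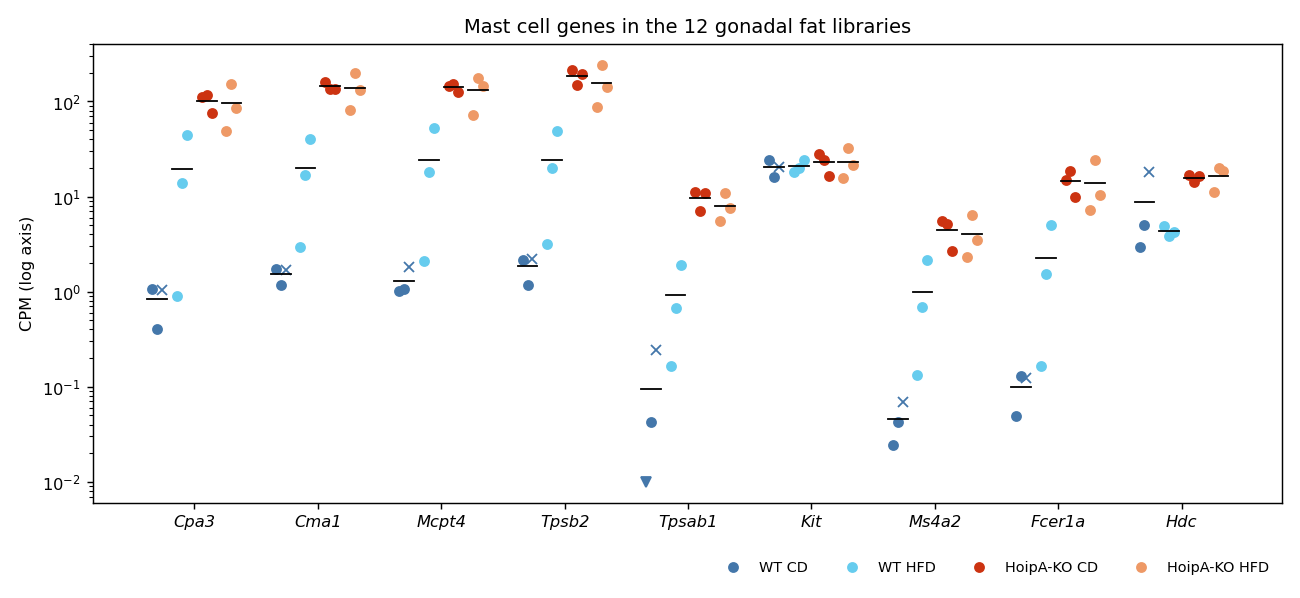
CPM of the 9 mast cell genes (log axis) in each library, with 3 libraries in each of the WT CD, WT HFD, HoipA-KO CD and HoipA-KO HFD groups; black bars are group means, crosses are WT CD replicate 3, and the triangle is a library at 0 counts drawn at the foot of the axis. Cpa3 lies at or below 1.07 CPM in WT CD and between 49.4 and 152 CPM in HoipA-KO libraries, while Kit lies between 15.8 and 32.1 CPM in all 12.

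Divided by the summed exon length of each gene, the order of the levels differed between the groups. In HoipA-KO CD the mean CPM per kilobase was 132 ± 12.5 (SD, n = 3) for Cma1, 128 ± 13.2 for Mcpt4 and 116 ± 21.0 for Tpsb2, and these 3 did not differ beyond their spread. Cpa3 followed with 66.5 ± 14.7 CPM per kilobase, then Fcer1a with 14.5 ± 4.27 and Tpsab1 with 4.61 ± 1.08. Kit with 2.57 ± 0.682, Hdc with 2.46 ± 0.222 and Ms4a2 with 1.58 ± 0.545 CPM per kilobase stood last, the first 2 of them within their spread. In WT CD Kit stood first with 2.27 ± 0.461 CPM per kilobase, followed by Cma1 with 1.40 ± 0.279, and Tpsab1 and Ms4a2 stood last with 0.0457 ± 0.0623 and 0.0162 ± 0.00812. The ratio of Cpa3 to Kit CPM was 0.0252 to 0.0517 in WT CD, 0.0491 to 1.83 in WT HFD, 3.91 to 4.83 in HoipA-KO CD and 3.14 to 4.74 in HoipA-KO HFD.

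The 7 genes other than Kit and Hdc varied together from library to library. Their summed CPM was 6.07, 4.05 and 7.14 in WT CD, 9.56, 72.1 and 195 in WT HFD, 661, 585 and 556 in HoipA-KO CD, and 305, 815 and 528 in HoipA-KO HFD. Within groups the deviations of Cma1 and Tpsb2 had a Pearson r of 0.992 and those of Ms4a2 and Fcer1a 0.978 over the 12 libraries, values that share the depth of each library and carry no p. The deviations of Cpa3 and Tpsab1 had an r of 0.583, those of Cpa3 and Kit 0.550, and those of Cpa3 and Hdc 0.0326. Those of Tpsab1 and Hdc had an r of 0.716, so by this measure Tpsab1 lay closer to Hdc than to Cpa3. The ratio of Cma1 to Mcpt4 stayed between 0.777 and 1.69 in all 12 libraries, over which Cma1 itself ranged from 1.18 to 200 CPM.

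On CD, Cpa3 was 7.14 ± 1.49 higher in HoipA-KO than in WT on the log2 scale (fitted log2 fold change ± SE), Fcer1a 7.32 ± 1.43, Mcpt4 7.11 ± 1.25, Tpsb2 6.83 ± 1.15 and Cma1 6.66 ± 1.07. Hdc was 2.01 ± 0.31 higher, or 0.79 with WT CD replicate 3 in the fit, and Kit differed by 0.21 ± 0.33. Tpsab1 and Ms4a2 were at or under 3 counts in both WT CD libraries of the fit, so their pooled counts are compared instead. Tpsab1 had 1480 counts in HoipA-KO CD against 2 in WT CD, a ratio of 419 scaled for depth (95% exact interval 116 to 3462, counting error only). Ms4a2 had 697 counts against 3, a ratio of 132 (interval 44.8 to 639). The median log2 fold change of the 9 genes was 6.96, or 6.83 with Tpsab1 and Ms4a2 set to their floor, beside -0.06 over all 18427 genes tested. In this contrast 8 of the 9 genes passed an edgeR adjusted p of 0.05 upwards, as 18.9% of all genes did. Because levels in these libraries chose the genes, nothing can be read from such counts of the 9 genes, in this contrast or in those that follow. In bulk tissue, more cells of a type and more RNA per cell cannot be told apart.

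On HFD the same genes were higher in HoipA-KO than in WT by less: Cma1 by 2.80 ± 0.73, Tpsb2 by 2.73 ± 0.78, Fcer1a by 2.64 ± 0.90, Mcpt4 by 2.47 ± 0.82, Cpa3 by 2.31 ± 0.97, Ms4a2 by 2.05 ± 0.78 and Tpsab1 by 3.11 ± 0.73. Hdc was higher by 1.96 ± 0.27, as on CD, and Kit differed by 0.17 ± 0.30. The median over the 9 genes was 2.47, beside 0.06 over all genes, and it was 3.72 without WT HFD replicate 3, the library with the highest levels of that group. Upwards 4 of the 9 passed the threshold, beside 4.2% of all genes, and none downwards, beside 7.62%, again with nothing to be read from the counts of the 9. The count upwards was 0 with all 12 libraries and 8 without WT HFD replicate 3, beside 96 and 1149 of all genes.

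In WT mice HFD against CD gave 4.75 ± 1.35 for Cpa3, 4.62 ± 1.33 for Fcer1a, 4.53 ± 1.12 for Mcpt4, 3.86 ± 1.00 for Tpsb2 and 3.79 ± 0.93 for Cma1. The pooled count ratio was 44.6 for Tpsab1 (132 against 2 counts, interval 12.1 to 372) and 32.0 for Ms4a2 (142 against 3 counts, interval 10.7 to 157). Hdc differed by 0.11 ± 0.29 and Kit by 0.04 ± 0.33. The median was 4.53, or 3.84 with Tpsab1 and Ms4a2 at their floor, and it was 3.12 without WT HFD replicate 3. Upwards 7 of the 9 passed, beside 9.35% of all genes, and this count too is a description only. It was 0 with a replicate block and 0 without WT HFD replicate 3, beside 1195 and 864 of all genes upwards. Without WT HFD replicate 2 it was 1, beside 982. In HoipA-KO mice the diet gave a median of -0.08 with a range of -0.28 to 0.06 over the 9 genes. Over all genes edgeR called 0% in either direction in that contrast, with 415 genes at an unadjusted p under 0.05 and 7 genes called by DESeq2's Wald test. The interaction of genotype and diet had a median of -4.65 over the 9 genes, with Kit at -0.04 ± 0.45 and Hdc at -0.05 ± 0.39. None of the 9 was called by edgeR, beside 3.58% of all genes called downwards and 0.331% upwards. An unadjusted p under 0.05 was found for 7 of the 9 and for 4228 of all 18427 genes. DESeq2's Wald test called 7 of the 9 downwards, beside 1469 of all 18427 genes. Without WT HFD replicate 1 edgeR also called 7 of the 9 downwards, beside 945 of 18287 genes. Again nothing can be read from these counts of the 9. Without WT HFD replicate 3 the interaction median of the 9 genes was -3.16. These contrasts share the WT CD and the other libraries, so the values stand side by side and are not independent.

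**Figure D2:**
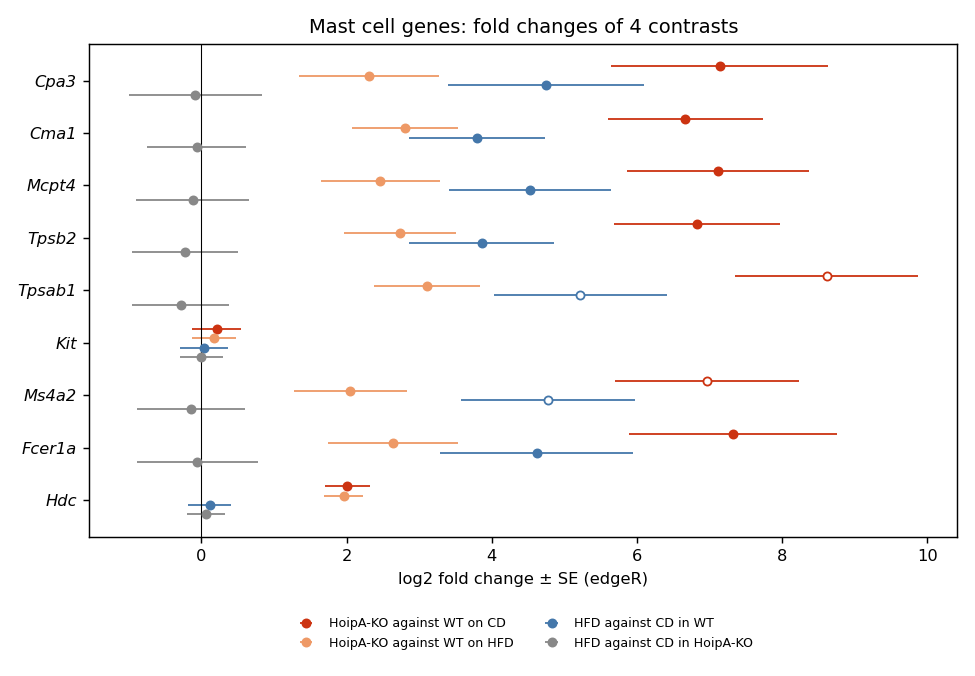
Log2 fold changes ± SE (horizontal axis, edgeR) of the 9 mast cell genes in 4 contrasts of 11 libraries; open circles mark genes whose comparison group had at most 3 counts in every library, where the fitted value depends on the prior count. The 7 protease and IgE receptor genes lie far from 0 in HoipA-KO against WT on CD and near 0 for HFD against CD in HoipA-KO, Kit lies near 0 in all, and Hdc at 2.01 and 1.96 in both genotype contrasts.

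Genes of the mast cell programme that are not among the 9 were tested one by one in the same fit. This list, and the growth, histamine, shared and signalling lists below, were chosen with earlier results of these data known. Their calls are therefore no independent support for the levels of the 9 genes. Of the 22 genes of this programme 18 could be tested, and 12 rose in HoipA-KO against WT on CD while none fell, beside 18.9% and 18.8% of all genes, with a median log2 fold change of 3.14. Mrgprb1, Mrgprb2, Cyp11a1, Cd200r3, Tpsg1, Cma2 and Gata1 had at most 5 counts in each WT CD library of the fit. These genes could rise but could hardly be called lower. With at least 10 counts required in every library, 6 genes could be tested and 2 rose, beside 3000 of all 14339 genes. The Mas-related receptor gene Mrgprb1 rose from 0.0974 and 0.0214 CPM in WT CD replicates 1 and 2 to 17.1, 14.5 and 6.51 CPM in HoipA-KO CD (7.75 ± 1.51, edgeR adjusted p = 0.00388). Mrgprb2, the receptor through which peptides and drugs trigger connective tissue mast cells, rose from 0.0487 and 0.0857 to 5.55, 4.46 and 3.11 CPM (5.99 ± 1.14, edgeR adjusted p = 0.00359). Cyp11a1, which makes pregnenolone and is also active in steroidogenic glands, rose by 6.26 ± 0.84 (edgeR adjusted p = 0.000752) from 0.0731 and 0.0857 CPM to 8.11, 5.07 and 5.36 CPM. These WT CD values rest on 4 and 1 counts for Mrgprb1, 2 and 4 for Mrgprb2 and 3 and 4 for Cyp11a1, at or near the floor. Over 19 alternatives the Mrgprb1 estimate ranged from 7.04 to 9.06. With WT CD replicate 3, where Cyp11a1 stood at 25.9 CPM beside the germ cell transcripts, its estimate was -0.58.

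Genes for amine storage and handling rose as well on CD. Slc18a2, the vesicular transporter that loads histamine and serotonin into granules, rose by 4.12 ± 0.67 (edgeR adjusted p = 0.0017), Tph1, the enzyme of peripheral serotonin synthesis, by 5.42 ± 1.29 (0.010), and Slc6a4, the serotonin transporter, by 2.61 ± 0.64 (0.0115), the values in brackets being edgeR adjusted p. The receptor genes Il1rl1, the receptor for interleukin-33, by 2.86 ± 0.57 (edgeR adjusted p = 0.00434) and Adora3, an adenosine receptor, by 3.42 ± 0.76 (edgeR adjusted p = 0.00753) also rose. With WT CD replicate 3, at 2.88 CPM above the 1.45 to 2.33 CPM of HoipA-KO CD, the difference of Adora3 was 0.78 and the call was lost. Il1rl1 went from 5.04 and 3.21 CPM in WT CD replicates 1 and 2 to 36.0, 32.2 and 19.1 CPM in HoipA-KO CD. Its ratio to Cpa3 CPM was 2.60 to 7.89 in the 3 WT CD libraries and 0.253 to 0.326 in HoipA-KO CD, without overlap. Cpa3 was chosen by its levels in these libraries, so this ratio is a description only. For genes with at most 3 counts per WT CD library the pooled ratio on CD was 50.0 for Cd200r3, an activating receptor (353 against 4 counts, interval 19.3 to 184), 47.5 for the membrane tryptase Tpsg1 (84 against 1, 8.3 to 1900) and 25.5 for the chymase Cma2 (45 against 1, 4.34 to 1028), and all 3 passed the edgeR test, though Cma2 lost the call in 5 of 19 alternatives, among them those without WT CD replicate 1, WT CD replicate 2, HoipA-KO CD replicate 1 or HoipA-KO CD replicate 3.

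The transcription factor Gata1 passed on CD (2.75 ± 0.94, edgeR adjusted p = 0.044) at 0.284 to 0.821 CPM in HoipA-KO CD, but lost the call in 13 of 19 alternatives, and with WT CD replicate 3 its estimate was -1.76. The genes that did not pass on CD were Gata2 (0.51 ± 0.33), Tal1 (0.51 ± 0.25), Enpp3 (0.47 ± 0.24), Rab27b (0.41 ± 0.58), Rgs13 (2.23 ± 1.12) and Ctsg (2.21 ± 1.07). Proteases of mucosal mast cells were near or under the floor, with Mcpt1 at 0 to 0.240 CPM and Mcpt2 at 0 to 0.0711 CPM over the 12 libraries, and Mcpt9 and Mrgprb13 had no count in any.

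On HFD 3 of the 18 rose in HoipA-KO, against 4.2% of all genes: Cyp11a1 by 2.80 ± 0.57 (edgeR adjusted p = 0.0195), Gata2 by 1.05 ± 0.29 (edgeR adjusted p = 0.0466) and Gata1, whose pooled ratio was 12.4 (74 against 5 counts, interval 5.08 to 39.3; edgeR adjusted p = 0.0294). None fell, and 14 had an unadjusted p under 0.05, beside 5812 of all 18427 genes. The count was 0 when WT HFD replicate 1, WT HFD replicate 2, HoipA-KO HFD replicate 2 or HoipA-KO HFD replicate 3 was omitted, 10 without WT HFD replicate 3, 5 and 6 without WT CD replicate 1 or 2, and 11 with DESeq2's Wald test. Over all genes the calls upwards moved as well, from 774 in the main fit. They were 42, 38, 65 and 107 in the fits just named that gave 0, in the same order. They were 1149 without WT HFD replicate 3, 1428 and 1655 without WT CD replicate 1 or 2, and 2216 with DESeq2's Wald test. In WT mice HFD raised 5 of the 18, beside 9.35% of all genes: Mrgprb1 by 5.2 ± 1.41, Cyp11a1 by 3.19 ± 0.76, Slc18a2 by 2.35 ± 0.63, Enpp3 by 0.92 ± 0.24 and Cd200r3 (edgeR adjusted p = 0.0376, 0.0247, 0.0362, 0.0341 and 0.0211 in this order). Cd200r3 had 75 counts in WT HFD against 4 in WT CD, a ratio of 12.7 (interval 4.75 to 47.7). With WT CD replicate 3 in the fit, the diet difference of Cyp11a1 turned to -3.63 and the call of Cd200r3 was lost (2.01). Without WT CD replicate 2 the count was 0, without WT HFD replicate 1 it was 8, and without WT HFD replicate 3 it was 1. Over all genes the calls upwards in these fits were 750, 1634 and 864, beside 1723 in the main fit. Leaving out WT CD replicate 1, WT HFD replicate 2, HoipA-KO CD replicate 1 or HoipA-KO HFD replicate 3 gave 2, beside 2913, 982, 1296 and 1333 of all genes. Leaving out HoipA-KO CD replicate 2 or 3 gave 3, beside 1617 and 1421. Under the replicate block 1 gene passed, beside 1195 of all genes. In HoipA-KO mice the diet called none of the 18 by edgeR or DESeq2, with none at an unadjusted p under 0.05. The interaction called none by edgeR, with 7 at an unadjusted p under 0.05, 5 calls by DESeq2 and 5 without WT HFD replicate 1. Over all genes 4228 had such an unadjusted p, and calls downwards were 1469 by DESeq2 and 945 without WT HFD replicate 1.

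**Figure D3:**
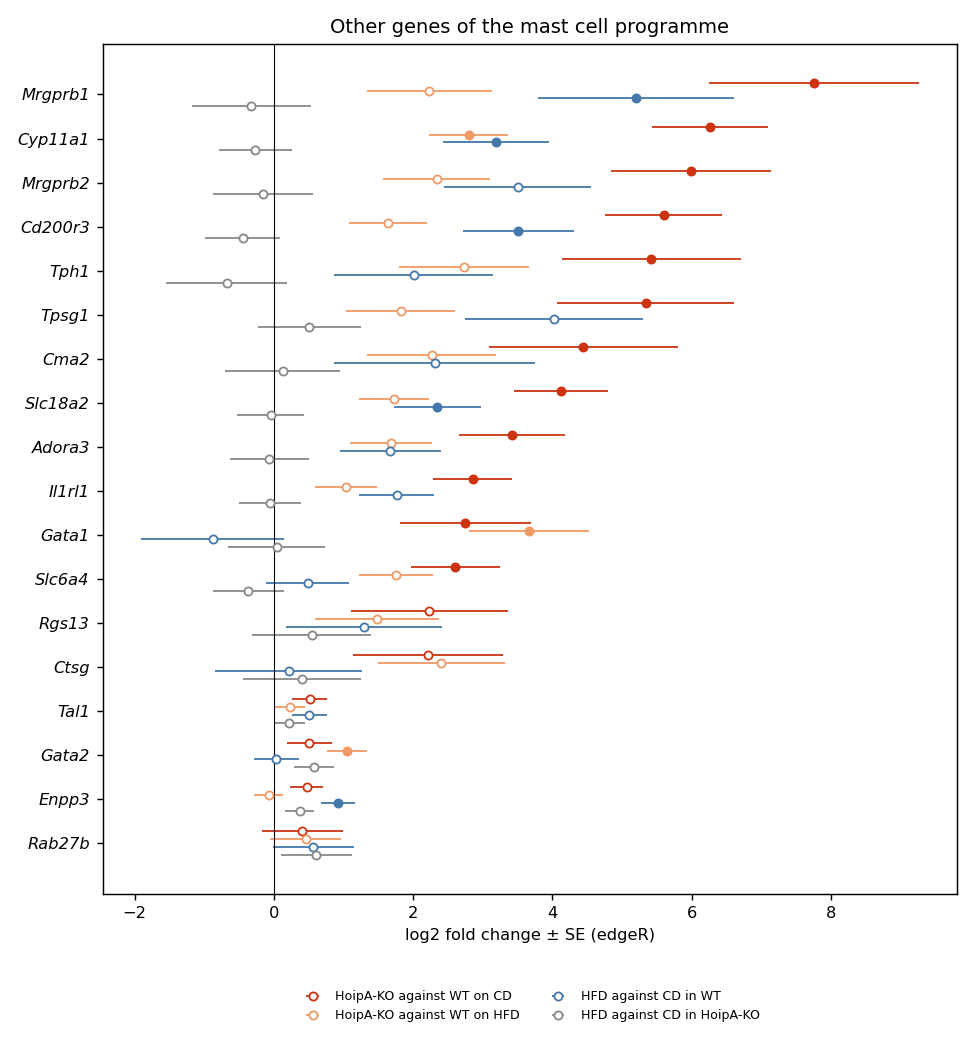
Log2 fold changes ± SE (horizontal axis, edgeR) of the 18 tested genes of the mast cell programme outside the 9, in 4 contrasts of 11 libraries; filled circles passed an adjusted p of 0.05 and open circles did not. On CD 12 genes are filled for HoipA-KO against WT, on HFD 3, for HFD against CD in WT 5 and in HoipA-KO none; values of Cma2, Tpsg1 and Cd200r3 against WT CD rest on at most 3 counts per library.

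Growth factors, cytokines and homing molecules of mast cells gave a mixed picture. Of 15 genes tested 8 rose in HoipA-KO on CD and none fell, 3 rose on HFD and 6 rose with HFD in WT, beside 18.9%, 4.2% and 9.35% of all genes called higher and 18.8% called lower on CD. Kitl, the stem cell factor gene, was measured at 78.3, 43.2 and 43.2 CPM in WT CD, 97.4, 98.3 and 117 CPM in WT HFD, 78.0, 104 and 55.2 CPM in HoipA-KO CD, and 67.6, 90.9 and 80.1 CPM in HoipA-KO HFD, and did not pass in any contrast (0.43 ± 0.31 on CD). Il33, an alarmin that signals through Il1rl1, did not pass either (0.82 ± 0.38 on CD). The genes that rose on CD were Ccl2, a chemokine for monocytes (3.46 ± 0.42, edgeR adjusted p = 0.00054), the integrin chains Itga4 (3.56 ± 0.48) and Itgb7 (3.00 ± 0.36), which guide mast cell progenitors into tissue, Tgfb1 (2.49 ± 0.30), Il3ra (2.26 ± 0.31), Cxcr4 (2.03 ± 0.29), Il4ra (0.93 ± 0.18) and Cxcl12 (0.67 ± 0.23, edgeR adjusted p = 0.0421), and Cxcl12 lost the call in 11 of 20 alternatives. On HFD Tgfb1 (1.21 ± 0.25), Il3ra (0.99 ± 0.25) and Itgb7 (1.44 ± 0.29) rose in HoipA-KO, and each lost the call without WT HFD replicate 2 and in some other alternatives. In WT mice HFD raised Ccl2, Itga4, Tgfb1, Il3ra, Itgb7 and Cxcr4. Whole tissue does not show which cells made these transcripts. Macrophage markers rose in the same contrasts, as given below, and the part of other leukocytes in these rises was not tested. Ccl11 (0.92 ± 0.38 on CD) and Il9r (0.29 ± 0.50) did not pass in any contrast. Il3 had no count in any library.

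Around histamine, Hnmt, the methyltransferase that inactivates it in cells, fell on CD from 39.6 and 23.4 CPM in WT CD replicates 1 and 2 to 17, 20.9 and 12.5 CPM in HoipA-KO CD (-0.86 ± 0.27, edgeR adjusted p = 0.031), a call lost in 5 of 20 alternatives. WT CD replicate 3, outside the fit, had 11.6 CPM. The receptor gene Hrh1 rose from 1.68 and 1.11 to 3.41, 2.83 and 3.93 CPM (1.31 ± 0.29, edgeR adjusted p = 0.00723). Hrh4 passed with 32 counts against 1 (ratio 18.1, interval 3.03 to 737; edgeR adjusted p = 0.0407) and lost the call in 12 of 19 alternatives, with an estimate of -0.20 over 12 libraries. Hrh2 did not pass (0.25 ± 0.36). No gene of the list passed in another contrast.

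Genes that mast cells share with other leukocytes were counted apart. Of 12 such genes 9 rose on CD, 3 on HFD and 5 with HFD in WT, beside 18.9%, 4.2% and 9.35% of all genes. Of 16 genes of the signalling chain below the IgE receptor 14 rose and 1 fell on CD, 3 rose on HFD and 11 rose with HFD in WT. The shares of all genes that rose are those just given, and 18.8% fell on CD. Fcer1g, the common gamma chain of the IgE receptor and of IgG receptors, had 24.2, 19.1 and 12.5 CPM in WT CD, 63.4, 103 and 153 CPM in WT HFD, 297, 337 and 349 CPM in HoipA-KO CD, and 231, 336 and 329 CPM in HoipA-KO HFD (3.95 ± 0.39 on CD, edgeR adjusted p = 0.000452). Hpgds, the haematopoietic prostaglandin D synthase, rose by 5.50 ± 0.69, Alox5ap, which serves leukotriene synthesis, by 4.13 ± 0.54, and the cytokine receptor chain Csf2rb2 by 3.00 ± 0.31. In the signalling chain Btk rose by 4.66 ± 0.52, the exchange factor Vav1 by 3.94 ± 0.40, the adaptor Lcp2 by 3.43 ± 0.35 and the kinase subunit Pik3cd by 3.03 ± 0.33, with edgeR adjusted p of at most 0.000667 in all of these. Pik3cd stood at 42.2 CPM in WT CD replicate 3 against 9.04 and 7.07 CPM in the other WT CD libraries, and with that library its difference was 1.66 and the call was lost. The interaction of genotype and diet passed downwards for 4 of the 12 shared genes and 7 of the 16 signalling genes, beside 3.58% of all genes. With 1 library left out, the interaction calls downwards over all genes ranged from 1 to 1880.

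Markers of other leukocytes moved with the 7 genes other than Kit and Hdc. The 7 macrophage markers summed to 225, 175 and 131 CPM in WT CD, 960, 2275 and 4655 in WT HFD, 9818, 12649 and 9273 in HoipA-KO CD, and 5113, 12099 and 6606 in HoipA-KO HFD. On CD 6 of the 7 rose, beside 18.9% of all genes, while Mertk did not pass. Ptprc, the common leukocyte gene, had 15.7, 14.4 and 17.4 CPM in WT CD, 70.1, 106 and 181 in WT HFD, 242, 346 and 155 in HoipA-KO CD, and 143, 261 and 166 in HoipA-KO HFD. In WT HFD the sum of the 7 mast cell genes, the macrophage sum and Ptprc were lowest in replicate 1 and highest in replicate 3. The part of these cells in the results was not tested. The summed CPM of the 7 mast cell genes per CPM of Ptprc was 0.280 to 0.411 in WT CD, 0.136 to 1.08 in WT HFD, 1.69 to 3.58 in HoipA-KO CD and 2.13 to 3.19 in HoipA-KO HFD, and did not overlap between genotypes. The 7 genes were chosen by their levels in these libraries, so this separation is a description only. Per summed CPM of macrophage markers it was 0.0231 to 0.0544 in WT CD, 0.00996 to 0.0418 in WT HFD, 0.0462 to 0.0673 in HoipA-KO CD and 0.0596 to 0.0800 in HoipA-KO HFD, and WT CD overlapped HoipA-KO CD through its replicate 3.

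**Figure D4:**
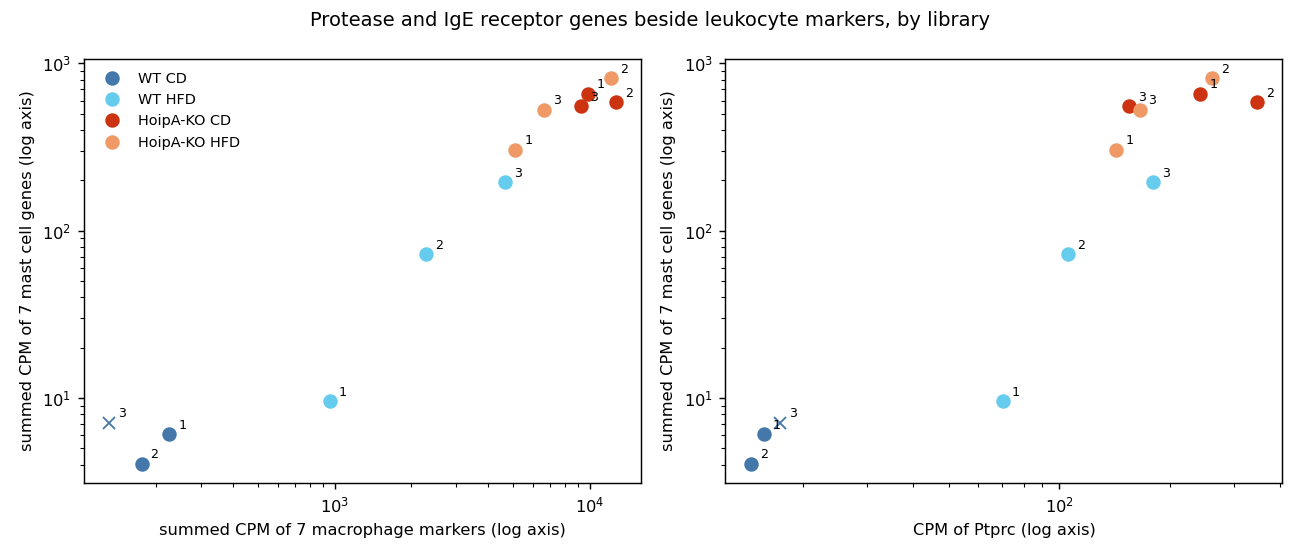
Summed CPM of Cpa3, Cma1, Mcpt4, Tpsb2, Tpsab1, Ms4a2 and Fcer1a (vertical, log axis) against the summed CPM of 7 macrophage markers (left, log axis) and the CPM of Ptprc (right, log axis), 1 point per library with its replicate number; the cross is WT CD replicate 3. The WT HFD libraries span 9.56 to 195 CPM on the vertical axis, between WT CD at 4.05 to 7.14 and HoipA-KO at 305 to 815.

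The basophil protease Mcpt8 stayed at 0 to 0.128 CPM in all 12 libraries, at 0 in 5 of them. The other basophil marker, Prss34, had 0.0487, 0.0428 and 0.0698 CPM in WT CD, 0, 0.346 and 1.17 CPM in WT HFD, 3.21, 1.81 and 2.82 CPM in HoipA-KO CD and 2.12, 2.86 and 2.83 CPM in HoipA-KO HFD. On CD it had 400 counts against 4 (ratio 56.6, interval 21.9 to 209) and passed the test (edgeR adjusted p = 0.0102). Of the 5 eosinophil markers, which summed to 0.621 to 11 CPM, Ccr3 and Siglecf rose on CD and with HFD in WT, beside 18.9% and 9.35% of all genes. The granule gene Epx was at 0 to 0.167 CPM, at 0 in 8 libraries.

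The genes most like the 9 were those with the highest Pearson r over the 12 libraries between their log2 CPM and the mean log2 CPM of the 9, among 15741 other genes with a mean of at least 1 CPM. They were Mrgprb2 (0.993), 2310022A10Rik (0.993), Mfsd12 (0.991), Slc18a2 (0.990), Aph1c (0.989), Hmga1 (0.989), Evl (0.988), Pcna (0.987), Slc43a2 (0.987) and Mrgprb1 (0.987). These values share the group differences and the depth of the libraries and carry no p. Only 2 of the 10 stayed among the first 10 with Spearman's rho, and 2 over 11 libraries. After the group means were subtracted, the 5 highest were Mrgprb2 (0.980), Evl (0.977), Galnt12 (0.975), Ccl3 (0.975) and Vav1 (0.971). Mrgprb2 came first by both measures, with a rho of 0.979, and Slc18a2 ranked the 12 libraries exactly as the 9 genes did (rho of 1).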

How the data were processed

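Polyadenylated RNA of GWAT was sequenced from stranded libraries. According to the methods and the submitters' notes, reads were trimmed by Trim Galore 0.6.7 and aligned by STAR 2.7.10a and the authors deposited estimated counts per gene from Salmon 1.5.2, without normalization. The notes name GRCm38 and the methods a human assembly, while all gene identifiers are those of mouse. Positions come from GENCODE vM21. The 3 deposited tables of the authors' own comparisons were not used.

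Counts were rounded and filtered (filterByExpr), normalized by TMM and fitted with edgeR 4.0.16 in R 4.3.3, as 1 quasi-likelihood model of 4 groups over 11 libraries with Benjamini-Hochberg adjustment over 18427 genes at 0.05. The model was checked on simulated data. Ratios of pooled counts have exact binomial intervals. Likeness was computed on log2 CPM with a prior count of 0.5. Alternatives were other scaling (DESeq2 size factors, library size), filters, the protein-coding table, all 12 libraries, a replicate block, only the groups compared, DESeq2 1.42.0, and each library left out. Named genes outside the 9 were those called in a contrast or with a mean of at least 1 CPM in the lists of mast cell, growth and histamine genes, and the 4 with the smallest p on CD in the shared and signalling lists. A gene that this rule names among the growth genes is not reported here. Prss34, Mcpt8 and some markers were named after their values were seen. The 9 genes and all lists were chosen with earlier results of these data known. No source states that pools came from separate litters or days, so p-values measure the spread between pools.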

Additional observations from a re-analysis of the deposited data

Results flagged for a closer look

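For 10 named genes outside the 9 the interaction of genotype and diet passed in the main fit (edgeR, p adjusted by Benjamini-Hochberg). Over all genes 3.58% were called downwards and 0.331% upwards. The log2 interaction was -2.44 for Fcer1g (adjusted p = 0.0281), -4.28 for Hpgds (0.0258), -2.73 for Alox5ap (0.0448), -2.0 for Csf2rb2 (0.0281), -3.44 for Btk (0.0256), -2.47 for Lcp2 (0.0256), -2.72 for Vav1 (0.0256), -2.12 for Pik3cd (0.0285), -3.15 for Ccl2 (0.0256) and -3.24 for Itga4 (0.0256). All 10 calls were lost without any 1 of WT CD replicate 2, WT HFD replicate 2, any HoipA-KO CD library, or HoipA-KO HFD replicate 1 or replicate 3. In those fits the interaction calls over all genes fell to between 1 and 4, from 660 downwards and 61 upwards in the main fit. Without WT CD replicate 1 they were 1880 downwards and 1788 upwards. With WT CD replicate 3 added, the interaction of Pik3cd was -0.76 and its call was lost.

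Among the 9 genes and the lists of other mast cell, growth and histamine genes, 4 genes stood at 1 CPM or more in WT CD replicate 3, which the fits leave out, and at more than 3 times the higher of the other WT CD libraries: Hdc at 18 CPM, Adora3 at 2.88 CPM, Gata1 at 4.41 CPM and Cyp11a1 at 25.9 CPM. The germ cell markers summed to 9409 CPM in the same library, and their part in these values was not tested.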

How the results depend on the processing

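The median log2 difference of the 9 genes kept its sign in the 4 contrasts other than HFD against CD in HoipA-KO under the alternatives run. With 1 library left out it ranged from 6.60 to 7.10 for HoipA-KO against WT on CD, 1.97 to 3.72 on HFD, 3.12 to 5.07 for HFD against CD in WT, -0.58 to 0.23 for HFD against CD in HoipA-KO and -5.18 to -3.16 for the interaction. Calls among the 18 other mast cell genes ranged from 10 to 12, 0 to 10, 0 to 8, 0 to 0 and 0 to 5 in the same order. Calls over all genes changed between these fits as well, other than for HFD against CD in HoipA-KO. A minimum of 10 counts in every library left 2 calls on CD and 2 for HFD against CD in WT, by testing 6 genes rather than 18. Of all 14339 genes tested there, 3000 and 1660 were called higher in these 2 contrasts. On HFD library size alone gave 5 calls, all 12 libraries 0 and DESeq2's Wald test 11. Over all genes the calls upwards in these fits were 1279, 96 and 2216, beside 774 in the main fit. Only the groups in the contrast gave 0 for HFD against CD in WT, where 0 of all 17200 genes tested were called in either direction. DESeq2 gave 5 downwards for the interaction, beside 1469 of all genes. With all 12 libraries the log2 difference turned to -1.76 for Gata1, -0.58 for Cyp11a1 and -0.20 for Hrh4 on CD, and to -3.63 for Cyp11a1 with HFD in WT. The causes were not tested. Library size alone moved the share of higher calls from 35.5% to 53.0% on HFD and from 63.1% to 75.7% for HFD against CD in WT, and the median of all genes from -0.01 to 0.09 for HFD against CD in HoipA-KO.

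Same-numbered libraries deviated together in 5 of 15 pairs (r from -0.47 to 0.40), so the numbers were not taken to pair the samples. With a replicate block the median of the 9 genes was 6.88 on CD, 2.84 on HFD, 3.73 for HFD against CD in WT, -0.32 for HFD against CD in HoipA-KO and -4.06 for the interaction, and the other mast cell genes gave 10, 4, 1, 0 and 0 calls. Over all genes the calls upwards were 3164, 965, 1195, 0 and 14 in the same order.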
